A study of Mus musculus with 9 samples.

Results

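The genes described here are the 3 D-type cyclins (Ccnd1, Ccnd2 and Ccnd3), the kinase they activate (Cdk4), the 4 INK4 inhibitors (Cdkn2a, Cdkn2b, Cdkn2c and Cdkn2d) and the CIP/KIP inhibitors Cdkn1a and Cdkn1b. They were chosen by gene symbol, all 10 are among the 16921 genes of the RiboSeq table, and all 10 are among the 10099 genes whose mean level reached 10. RiboSeq sequences the mRNA fragments that ribosomes protect from nuclease, so a gene's level reflects both how much of its mRNA there is and how densely it is translated. The data are 9 libraries from mouse bone marrow-derived macrophages that lack TTP (tristetraprolin, encoded by Zfp36), 3 each from lines with GFP alone, with GFP-TTP or with GFP-TTP-AA. TTP-AA carries the substitutions S52A and S178A and cannot be phosphorylated at these serines by the kinase MK2. All cells had been immortalized with human c-Myc and human H-Ras carrying G12V, were transduced with a tetracycline-inducible vector, sorted for GFP, and received 1 µg/ml doxycycline for 6 h and 1 µg/ml LPS for 1 h. Bone marrow came from mice aged 6 weeks, and the deficient allele was Zfp36 tm1Pjb, per the authors' methods. Each condition is a separately transduced line, and nothing states that the 3 replicates of a line are separate cultures, so the errors may be technical. Unstimulated cells and cells with endogenous TTP were not analysed here, and c-Myc and Ras, which act on several of these genes, were present in all 3 conditions.

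Passage from G1 into S phase depends on the D-type cyclins, which bind CDK4 or CDK6 and start the phosphorylation of the retinoblastoma protein. In macrophages their expression follows growth factors such as M-CSF. INK4 proteins bind CDK4 and CDK6 and keep the cyclin away. The Cdkn2a locus also encodes ARF, which stabilizes p53 through Mdm2, and Cdkn1a is a p53 target. The CIP/KIP proteins inhibit cyclin E and cyclin A complexes of CDK2 and can also help to assemble cyclin D with CDK4. TTP binds AU-rich elements in 3′UTRs, with TATTTAT as a core motif (the same letters with U in the RNA), and recruits the machinery that removes poly(A) tails.

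Because TTP reads such motifs, the 3′UTR of each gene (GRCm38, GENCODE vM21, 1 representative transcript per gene) was searched on the transcribed strand for the core pentamer ATTTA, then for the longer form TATTTAT, which contains the pentamer, and for the extended form TTATTTATT, which contains both. Only Ccnd1, Cdkn1b and Cdkn2d held TATTTAT, and their 5 occurrences are printed because they separate these 3 genes from the other members. Each window has 30 bases, 5′ to 3′ on the strand of the gene, with TATTTAT in capitals.
Ccnd1 (chr7:144931309-144931338, minus strand, 3′UTR, 1280 nt after the stop codon): ctacagaagagTATTTATgggaaaggctgc
Cdkn1b, site 1 (chr6:134924118-134924147, plus strand, 3′UTR, 2055 nt after the stop codon): tttagtgcctgTATTTATccatcattactg
Cdkn1b, site 2 (chr6:134924746-134924775, plus strand, 3′UTR, 2683 nt after the stop codon): cacatggttgcTATTTATttctacatgaag
Cdkn1b, site 3 (chr6:134925266-134925295, plus strand, 3′UTR, 3203 nt after the stop codon): ttatactaactTATTTATgttaaaaagaga
Cdkn2d (chr9:21288464-21288493, minus strand, 3′UTR, 491 nt after the stop codon): tgaaatataaaTATTTATtgctttatggaa

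TATTTAT was present in 27.5% of the 9959 genes of sufficient level with an annotated 3′UTR, and in 3 of the 10 members. ATTTA was present in 66% of these genes and in 9 of the 10 members. It occurred 10 times in the 3439 nt 3′UTR of Cdkn1b, 5 times in the 2676 nt of Ccnd1, and 4 times each in Cdkn1a (1334 nt) and Cdkn2b (755 nt). Ccnd2, with the longest 3′UTR of the set (5173 nt), had 2. Cdkn2a, with the shortest (255 nt), had none. The longer motif TTATTTATT was in 7.09% of the genes and in 0 of the 10 members. These are matches of letters, and binding of TTP to them was not measured in this dataset.

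The deposited values come out of the authors' DESeq2 fit and are not the observed counts. Below, a level is a fitted value over its library's size factor, and a condition level is the geometric mean of its 3 libraries. Within a condition, the 3 values of a gene differ only by a term for the replicate number, which is the same in all 3 conditions, and carry no residual scatter. The order of replicate numbers within a condition, and of conditions at a replicate number, thus repeats by construction. Overlap or separation of these values between conditions reflects the size of that term and is no measure of observed scatter. The error of a difference is therefore the standard error (SE) that the authors' model gave the same gene, and p-values are from a two-sided Wald test with that SE, adjusted by Benjamini-Hochberg over all genes tested, with a threshold of 0.05. Fold changes are log2 values that the model had shrunk toward 0, more strongly for genes with few reads. The 3 comparisons share libraries and are not independent of each other. Library sums of the fitted values ranged from 2570292 to 12804501.

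Against GFP cells, neither TTP form changed any of the 10 genes at the threshold. Between the 2 TTP forms, 3 of the 10 genes passed: Cdk4 and Cdkn2a were higher and Ccnd1 was lower in GFP-TTP-AA than in GFP-TTP. The share of all tested genes that passed was 2.09% for GFP-TTP against GFP, 3.03% for GFP-TTP-AA against GFP and 10.2% for the 2 TTP forms against each other. The calls rest on the normal distribution for the Wald statistic. With a t distribution on 4 residual degrees of freedom 0 of all tested genes passed. That setting cannot check single calls, since even a Wald z of 22.5 gave an adjusted p of 0.23. At an unadjusted p under 0.05 it held 3 of the 10 members between the TTP forms, beside 1056 of all 10099 genes tested. In cells taken as a bulk, fewer cells of a kind and less of an mRNA per cell cannot be told apart.

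**Figure D1:**
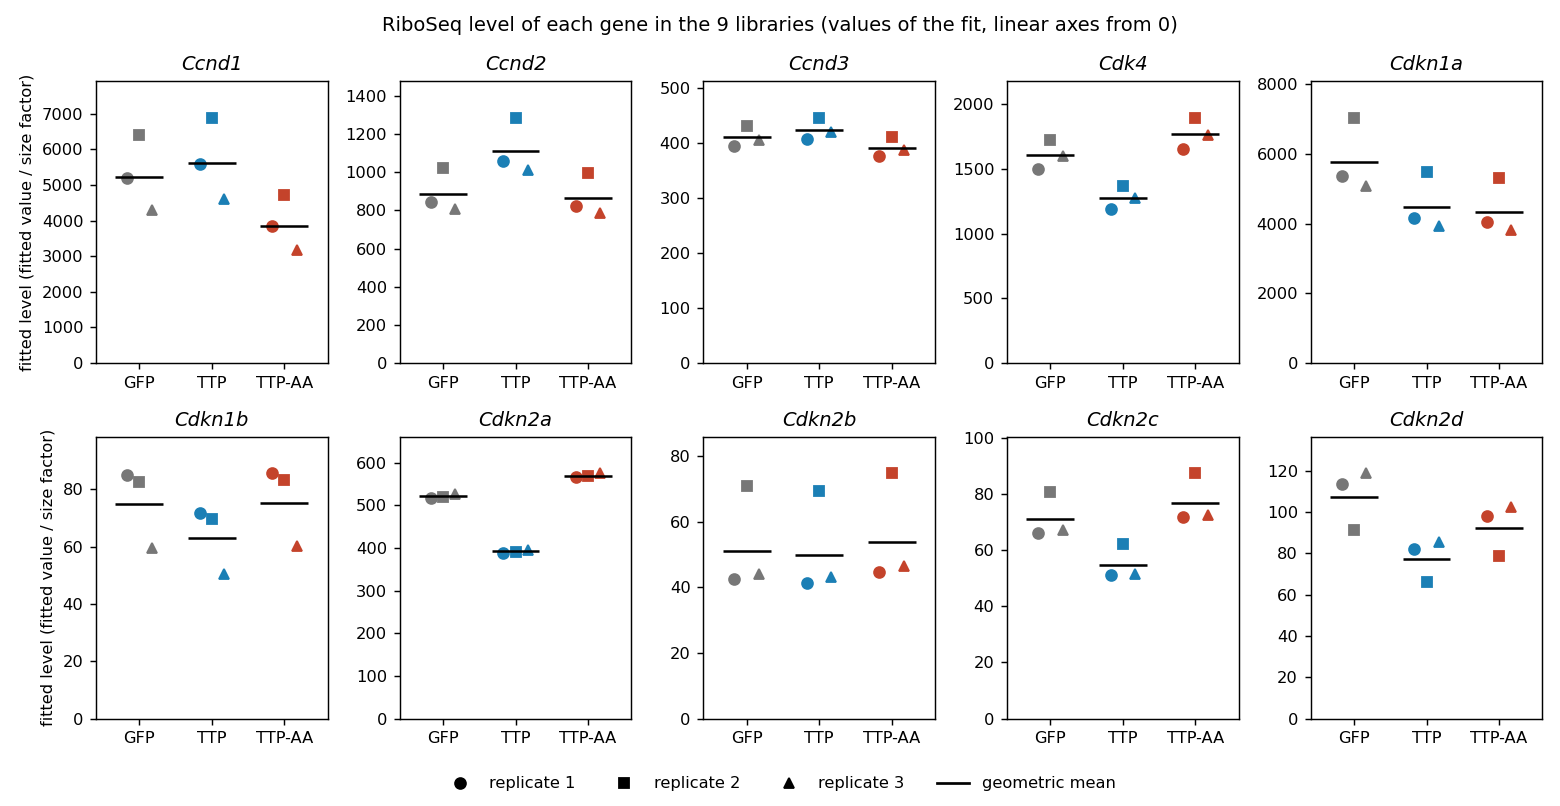
Fitted level of each gene (fitted value divided by size factor, linear axes from 0) in the 9 libraries. Symbols are replicate numbers, colours conditions and lines geometric means; the 3 D cyclins have their highest line in GFP-TTP, whereas Cdk4 and the 4 INK4 genes have their lowest there.

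Ccnd1 encodes cyclin D1 and lies at chr7:144929931-144939925 on the minus strand. Its level was 5203, 6410 and 4286 in GFP replicates 1, 2 and 3, and 5591, 6888 and 4605 in the GFP-TTP replicates. In GFP-TTP-AA it was 3838, 4729 and 3162. Replicate 2 was the highest and replicate 3 the lowest, in each condition by construction of the fit, and the ranges of all conditions overlapped. That GFP-TTP-AA was the lowest at each replicate number is likewise fixed by the fit and is no agreement of replicates. The condition level was 3857 in GFP-TTP-AA and 5618 in GFP-TTP, a ratio of 0.687. The log2 change was -0.54 (SE 0.19, 95% interval -0.91 to -0.17, adjusted p = 0.041). Against GFP, Ccnd1 differed by -0.44 in GFP-TTP-AA (SE 0.19, adjusted p = 0.22) and by 0.10 in GFP-TTP (SE 0.19, adjusted p = 0.90). The call against GFP-TTP lay close to the threshold and was lost, at an adjusted p of 0.067, when the 3 comparisons were adjusted together (Wald test, Benjamini-Hochberg).

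Ccnd2, which encodes cyclin D2 (chr6:127125162-127152193, minus strand), was at 846, 1025 and 807 in GFP and at 1061, 1285 and 1012 in GFP-TTP. In GFP-TTP-AA it was at 824, 997 and 785. The GFP-TTP values lay above all GFP-TTP-AA values and overlapped those of GFP. The log2 difference of GFP-TTP-AA to GFP-TTP was -0.37 (SE 0.18, 95% interval -0.72 to -0.01) and did not pass after adjustment (adjusted p = 0.22). That of GFP-TTP to GFP was 0.33 (SE 0.18, adjusted p = 0.52).

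Ccnd3, which encodes cyclin D3 (chr17:47505051-47599691, plus strand), had levels of 394, 431 and 406 in GFP. GFP-TTP had 408, 446 and 420, and GFP-TTP-AA had 377, 412 and 388. The ranges overlapped, and the largest of its 3 differences, that of GFP-TTP-AA to GFP-TTP, was -0.11 (SE 0.18, adjusted p = 0.78). Of the 1007 windows of 30 nt in the coding sequences of Ccnd3, 302 (30%) have an exact copy in its processed pseudogene on chromosome 4. Since the authors kept up to 2 alignments per read, the level of Ccnd3 is uncertain to that extent.

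All 3 D cyclins were ordered GFP-TTP, GFP, GFP-TTP-AA from high to low, an order held by 22.3% of all genes of sufficient level. Only the Ccnd1 step from GFP-TTP to GFP-TTP-AA passed the test.

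Cdk4, the catalytic partner of the D cyclins (chr10:127063534-127067920, plus strand), went the other way. Its level was 1191, 1367 and 1272 in GFP-TTP, and 1651, 1895 and 1763 in GFP-TTP-AA. In GFP it was 1499.6, 1721 and 1601. The GFP-TTP values lay below all values of the other conditions, which overlapped each other. Cdk4 was 1.39 times as high in GFP-TTP-AA as in GFP-TTP, a log2 change of 0.47 (SE 0.13, 95% interval 0.22 to 0.72, adjusted p = 0.0049). Against GFP the difference was -0.33 in GFP-TTP (SE 0.13, adjusted p = 0.21) and 0.14 in GFP-TTP-AA (SE 0.13, adjusted p = 0.71). Genes of chromosome 10 as a whole were shifted in the same comparison, by a median of 0.17, and with this median subtracted Cdk4 was at 0.30 and no longer passed (adjusted p = 0.14). Whether the shift of the chromosome has a part in the Cdk4 value was not tested. Of the 910 coding windows of Cdk4, 26 (2.86%) have an exact copy elsewhere in the genome.

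**Figure D2:**
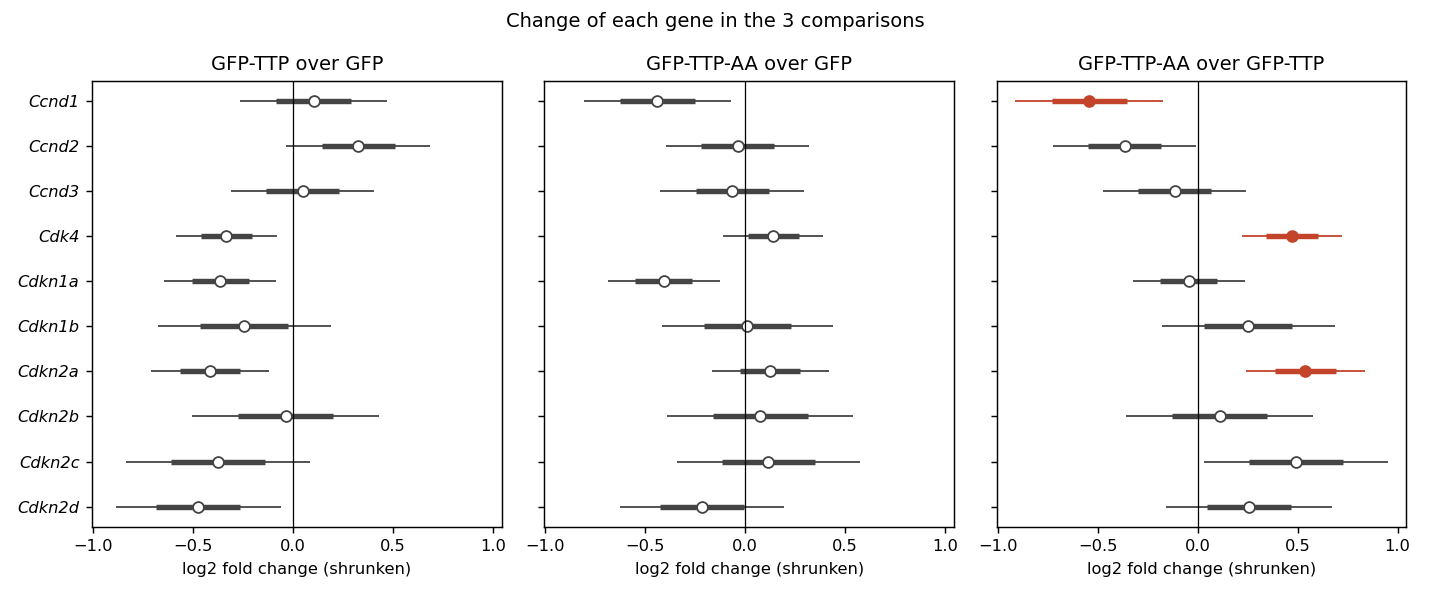
Log2 fold change (shrunken) of each gene in the 3 comparisons, with thick lines for 1 SE and thin lines for the 95% interval. Filled red points passed the threshold, namely Ccnd1 at -0.54, Cdk4 at 0.47 and Cdkn2a at 0.54 between GFP-TTP-AA and GFP-TTP.

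Among the inhibitors, Cdkn2a was the only one called. It encodes p16INK4a and ARF from different first exons (chr4:89274471-89294653, minus strand), which a count per gene does not separate. Its level was 389, 391 and 396 in GFP-TTP, 518, 520 and 527 in GFP, and 565, 568 and 575 in GFP-TTP-AA. The conditions did not overlap in these fitted values, in which replicate numbers hardly differed and no observed scatter remains. GFP-TTP-AA was 1.45 times GFP-TTP, a log2 change of 0.54 (SE 0.15, 95% interval 0.24 to 0.83, adjusted p = 0.0067). In GFP-TTP it differed from GFP by -0.41 (SE 0.15), which did not pass (adjusted p = 0.16). GFP-TTP-AA differed from GFP by 0.13 (SE 0.15, adjusted p = 0.81).

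The other INK4 genes were low, and none passed in any comparison. Cdkn2c (p18INK4c, chr4:109660876-109667189, minus strand) was at 66.2, 80.6 and 66.9 in GFP, at 51.0, 62.1 and 51.6 in GFP-TTP, and at 71.7, 87.3 and 72.5 in GFP-TTP-AA. All GFP-TTP values lay below those of the other conditions, which overlapped. The log2 difference between the TTP forms, 0.49, was close to that of Cdkn2a, but with an SE of 0.23 it did not pass (95% interval 0.03 to 0.95, adjusted p = 0.19). Both values are shrunken, to a degree that differs between genes, so their closeness need not hold for unshrunken values.

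Cdkn2d (p19INK4d, chr9:21288410-21291407, minus strand), with TATTTAT near the end of its 3′UTR, was at 113.7, 91.5 and 118.7 in GFP. GFP-TTP had 82.0, 66.0 and 85.5, and GFP-TTP-AA had 98.0, 78.8 and 102.2. All GFP values were above all GFP-TTP values, while GFP-TTP-AA overlapped both. The difference between GFP-TTP and GFP was -0.47 (SE 0.21, adjusted p = 0.32). It was the furthest from 0 of the 10 genes in that comparison.

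Cdkn2b (p15INK4b, chr4:89306299-89311039, minus strand), next to Cdkn2a on the chromosome, was at 42.5, 71.0 and 44.1 in GFP, at 41.4, 69.3 and 43.0 in GFP-TTP, and at 44.7, 74.7 and 46.4 in GFP-TTP-AA. The conditions overlapped almost fully, with replicate 2 the highest in each. Its difference between the TTP forms was 0.11 (SE 0.24, adjusted p = 0.84). No 30 nt coding window is shared between Cdkn2a and Cdkn2b, so exact matches cannot mix their footprints.

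Cdkn1a, which encodes p21 (chr17:29090976-29100727, plus strand), was the only gene of the set that was lower in both TTP forms than in GFP at an unadjusted p under 0.05. It was at 5355, 7030 and 5068 in GFP, at 4163, 5465 and 3940 in GFP-TTP, and at 4037, 5299 and 3821 in GFP-TTP-AA. Replicate 2 was the highest in each condition, and the ranges overlapped. The log2 difference to GFP was -0.36 in GFP-TTP (SE 0.14, adjusted p = 0.23) and -0.41 in GFP-TTP-AA (SE 0.14, adjusted p = 0.095). Neither passed. Both use the same GFP libraries, and the TTP forms differed by -0.04 (SE 0.14, 95% interval -0.33 to 0.24, adjusted p = 0.90).

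Cdkn1b, which encodes p27 (chr6:134920401-134925513, plus strand) and has the most motifs of the set, was at 84.9, 82.5 and 59.6 in GFP. GFP-TTP had 71.8, 69.7 and 50.4, and GFP-TTP-AA had 85.6, 83.1 and 60.1. Replicate 3 was the lowest in each condition, and the conditions overlapped. The differences to GFP were -0.24 in GFP-TTP (SE 0.22, adjusted p = 0.76) and 0.01 in GFP-TTP-AA (SE 0.22, adjusted p = 0.99). Between the TTP forms it was 0.25 (SE 0.22, adjusted p = 0.54).

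Of the 3 genes with TATTTAT, Ccnd1 was lower in GFP-TTP-AA than in GFP-TTP, while Cdkn1b and Cdkn2d had positive values that did not pass. Cdk4 and Cdkn2a, both higher in GFP-TTP-AA, have no TATTTAT in their 3′UTRs, and ATTTA occurs once in Cdk4 and not at all in Cdkn2a. The authors name Cdkn2a and Cdkn1a as TTP targets in their iCLIP. Neither has TATTTAT here, while Cdkn1a has 4 occurrences of ATTTA. The iCLIP status of the other members, those with TATTTAT included, is not given here. Whether the motifs have a part in these values was not tested.

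Taken as a list, the 10 genes had a median log2 difference of -0.29 between GFP-TTP and GFP, with 7 below 0 and 3 above, beside a median of 0.00 over all 9938 genes tested. At an unadjusted p under 0.05 there were 4 of the 10, compared with 11.3% of all genes. Between GFP-TTP-AA and GFP the median was -0.01, with 5 genes on each side and 2 of the 10 at an unadjusted p under 0.05, compared with 14.2% of all genes. For GFP-TTP-AA against GFP-TTP, the median was 0.18, with 6 genes above 0 and 4 below and 5 of the 10 at an unadjusted p under 0.05, compared with 22.1% of all genes. Cdk4, Cdkn1b, Cdkn2a, Cdkn2b and Cdkn2c shared the order GFP-TTP-AA, GFP, GFP-TTP, which 23% of all genes of sufficient level had, so that neither of the orders seen in cyclins and inhibitors was rare.

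To compare genes with each other, levels were divided by the annotated coding length. Cdkn1a, with a mean level of 10291 per kb of coding sequence, and Ccnd1, with 5614 per kb, were the highest. They were followed by Cdk4 (1706 per kb), Ccnd2 (1107 per kb) and Cdkn2a (975 per kb). Ccnd3 was at 467 per kb, and Cdkn2d, Cdkn2b, Cdkn2c and Cdkn1b lay between 122 and 187 per kb. Division by the length of all exons exchanged Ccnd2 with Cdkn2a and Ccnd3 with Cdkn2d in this order. The SEs belong to differences between conditions and not between genes, so neighbours in the order were not tested against each other. Ccnd2 and Cdkn2a in particular changed places between conditions.

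**Figure D3:**
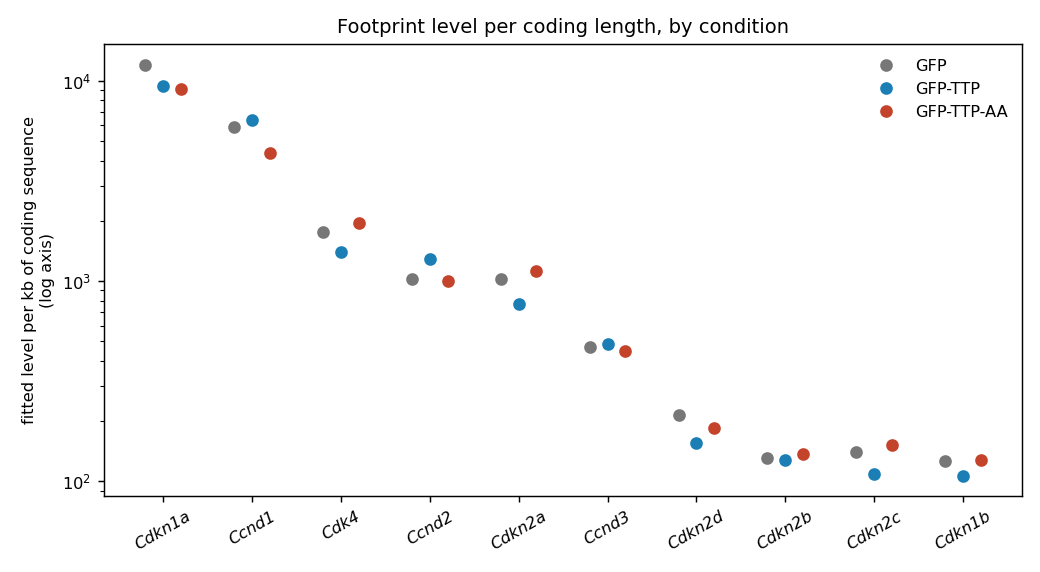
Fitted level per kb of coding sequence (log axis) of the 10 genes, ordered by their mean, with 1 point per condition. Cdkn1a and Ccnd1 stand above the rest in all 3 conditions, and Cdkn2d, Cdkn2b, Cdkn2c and Cdkn1b have mean levels of 122 to 187 per kb.

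Within the D cyclins, Ccnd1 made up 79.8% of the summed level per kb in GFP, 78.2% of it in GFP-TTP, and 75.1% of it in GFP-TTP-AA. Within the INK4 genes, Cdkn2a made up 67.9%, 66.4% and 70.2% in the same order. In the CIP/KIP pair, Cdkn1a made up 99.0%, 98.9% and 98.6%. The same gene therefore led each family in all 3 conditions. The summed level per kb of the D cyclins was 7400 for GFP, 8117 for GFP-TTP, then 5802 for GFP-TTP-AA, and that of the INK4 genes was 1516, 1164 and 1598. Their quotient was 4.88 in GFP, reached 6.97 in GFP-TTP, and was 3.63 in GFP-TTP-AA. The quotient of the D cyclins to Cdk4 was 4.19, 5.79 and 2.99, whereas that of Cdk4 to the INK4 genes was 1.16, 1.20 and 1.22. The Cdkn2a count also holds ARF footprints and was divided by the coding length of 1 transcript. The INK4 sums and quotients are thus not those of the INK4 proteins alone. No error could be set on these sums, since errors are given per gene, and they describe footprints and not amounts of protein.

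Replicate numbers moved some of these genes as much as the conditions did. The largest step was that of Cdkn2b, whose replicate 2 was above replicate 1 by 0.74 on the log2 scale, the 99.1th percentile of all genes, while its conditions spanned 0.11. Ccnd1, a called gene, differed by -0.58 between replicates 3 and 2, somewhat more than the 0.54 that its conditions spanned. The difference of replicate 3 to replicate 1 was -0.51 for Cdkn1b, and Cdkn1a was higher by 0.39 in replicate 2 than in replicate 1. The SD of these steps over all genes was 0.27 between replicates 1 and 2, 0.29 between replicates 1 and 3, and 0.32 between replicates 2 and 3. Cdkn2a was the most even, with steps of 0.01 and 0.02, against 0.54 between its conditions. According to the authors' methods the model held a term for the library date. No date is given for the libraries, so whether a replicate number is a date cannot be told.

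**Figure D4:**
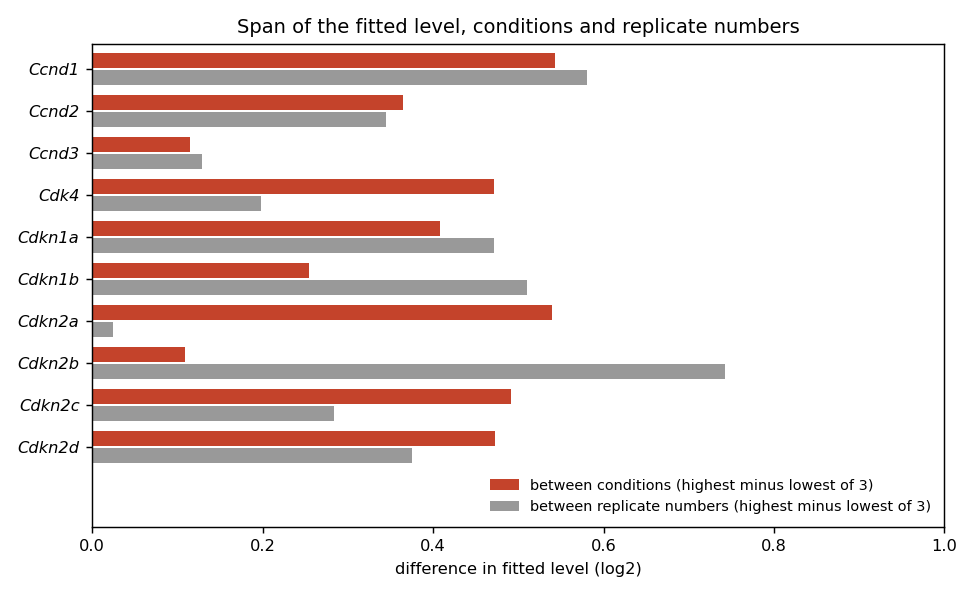
Highest minus lowest fitted level on the log2 scale, between the 3 conditions (red) and between the 3 replicate numbers (grey), for each gene. Cdkn2a has 0.54 between conditions with almost no replicate step, and Cdkn2b the reverse, with 0.11 and 0.74.

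Further genes of the G1/S machinery were examined as lists. Of 23 partners (other cyclins, kinases, the retinoblastoma family and E2F factors), none of 22 tested passed between GFP-TTP and GFP, 1 was higher in GFP-TTP-AA than in GFP, and 2 were higher and 1 lower in GFP-TTP-AA than in GFP-TTP, where 10.2% of all genes were called. Their medians were -0.04, -0.06 and -0.05 in this order of comparisons. E2f6, a repressing E2F, was higher in GFP-TTP-AA than in GFP-TTP by 0.90 (SE 0.22, adjusted p = 0.0019) and than in GFP by 0.73 (adjusted p = 0.040). Cdc25a, the phosphatase that activates CDK2, differed by -0.47 between the TTP forms (SE 0.16, adjusted p = 0.040). Cdkn1c, the CIP/KIP gene of p57, differed by 1.05 (SE 0.23, adjusted p = 0.00028), from levels of 15.1 against 7.33 close to the minimum of 10 for a mean level.

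Of 20 genes for the turnover of D cyclins and inhibitors, Ddb1, an adaptor of CUL4 ubiquitin ligases, was higher in GFP-TTP than in GFP by 0.41 (SE 0.13, adjusted p = 0.049). Fbxo4, an F-box protein linked to cyclin D1, was higher in GFP-TTP-AA than in GFP-TTP by 0.66 (SE 0.21, adjusted p = 0.021). No other gene of that list passed in any comparison, and the medians of the list were 0.01, 0.00 and -0.08.

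Of 23 transcriptional regulators of these genes, 4 were higher and 0 lower in GFP-TTP-AA than in GFP-TTP, beside 5.66% higher and 4.58% lower of all genes tested. They were Id1 by 0.93 (SE 0.23, adjusted p = 0.0016) and Id2 by 0.80 (SE 0.18, adjusted p = 0.00047), which encode inhibitors of basic helix-loop-helix factors, Hras by 0.47 (SE 0.16, adjusted p = 0.040) and Ctnnb1 (β-catenin) by 0.40 (SE 0.12, adjusted p = 0.017). All cells also carry human H-Ras, and how its footprints were assigned is not given in the sources used here. Id1 was in addition higher in GFP-TTP-AA than in GFP, by 0.75 (SE 0.23, adjusted p = 0.039), and no regulator passed between GFP-TTP and GFP. The medians of the list were 0.04, 0.14 and 0.12 in the 3 comparisons, beside 0.00, 0.01 and 0.01 for all genes. Like the other lists, this one was chosen with earlier results of these data known, so its share of called genes is no independent result.

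**Figure D5:**
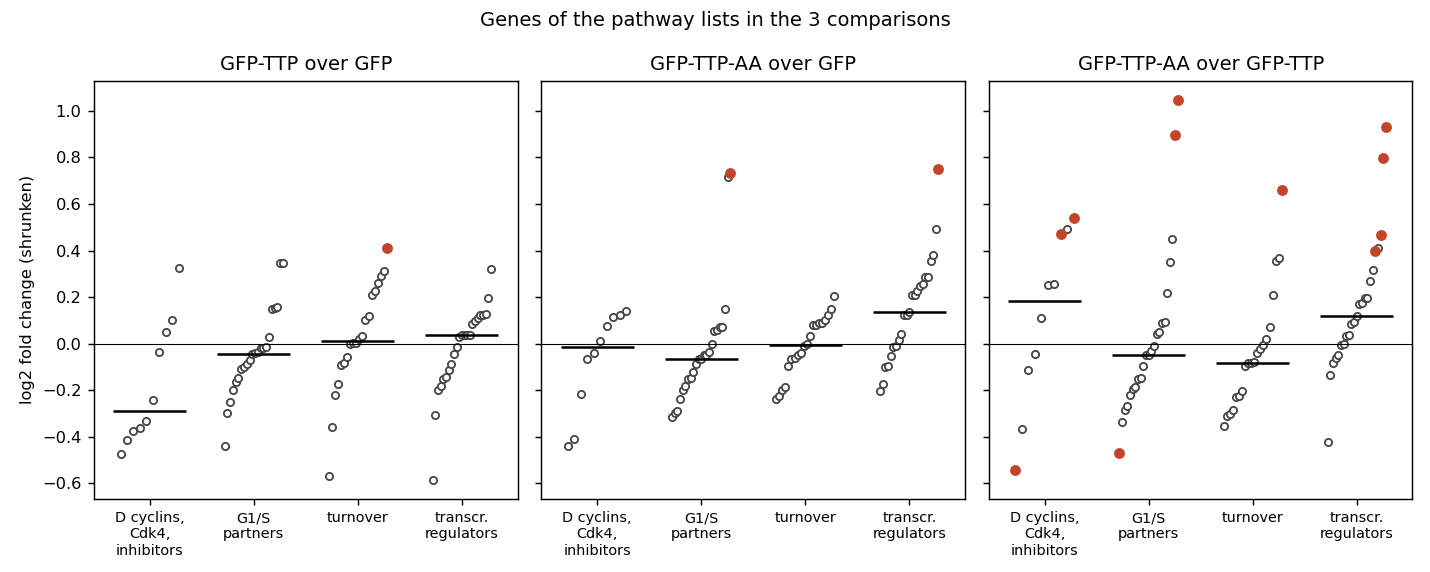
Log2 fold change (shrunken) of each gene in 4 lists for the 3 comparisons, ordered within a list, with lines for the medians and red points for genes that passed the threshold. Of the D cyclins, Cdk4 and inhibitors, 3 passed, all between GFP-TTP-AA and GFP-TTP.

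For likeness, the log2 levels of each gene were centred on its own mean over the 3 conditions. The genes closest to Ccnd1 among 8426 with a mean level of at least 50 were Foxred1, Khk and Ncoa3. Those closest to Cdk4 were Snrpf, Atp6ap2 and Fcgr4, and those closest to Cdkn2a were Pf4, Tmem259 and Sep15. With only 3 conditions such likeness is common, since 174, 270 and 131 genes lay within a distance of 0.1 of Ccnd1, Cdk4 and Cdkn2a.

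Zfp36, the gene of TTP, had levels of 457 in GFP, 923 in GFP-TTP cells and 1531 in those with GFP-TTP-AA. The level of 457 in the line labelled as lacking TTP and given GFP alone is a fitted value. It depends on fold changes shrunken toward 0, and the SE of Zfp36 lay near the largest of any gene (0.2504). The fitted values of all genes hold 0 zeros, so this level cannot show whether footprints were present in that line. What the deficient allele leaves to be counted is not given in the sources used here. The gene was higher than in GFP by 1.01 in GFP-TTP (SE 0.25, adjusted p = 0.0049) and by 1.74 in GFP-TTP-AA (SE 0.25, adjusted p = 2.3e-09). The 2 TTP forms thus differed in TTP footprints as well, by 0.73 (SE 0.25, adjusted p = 0.039), beside each difference between them. Macrophage markers were measured in all conditions, and their summed level over 8 genes was 93509 for GFP, 73759 for GFP-TTP and 106263 for GFP-TTP-AA. Most of it was Lyz2, at 63818, 45830 and 71176 in the same order. Emr1, Lyz2 and Fcgr1 were lower in GFP-TTP than in either other condition. Emr1 and Lyz2 had the same order of conditions as Cdk4 and Cdkn2a, and Emr1 was also higher in GFP-TTP-AA than in GFP. Itgam, Csf1r, Cd68, Mrc1 and Cd14 passed in no comparison. Itgam and Cd14 had their lowest level in GFP, and Mrc1 in GFP-TTP-AA. Of the fibroblast, T cell and B cell markers none reached a mean level of 10. S100a8, the only one of 3 neutrophil markers in the table to do so, was at 26.9 in GFP, at 25.5 in GFP-TTP, and at 55.7 in GFP-TTP-AA. Whether these shifts have a part in the values of the cell cycle genes was not tested.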

How the data were processed

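Ribosome-protected fragments were isolated with the ARTseq kit in the presence of cycloheximide. The submitters' processing notes name Trim Galore, TopHat2 2.0.12, HTSeq and DESeq2 1.6.3 with mm10/GRCm38, and up to 2 alignments per read were kept. Whether counting used strand is not given in the sources used here. Exons of Ccnd1, Ccnd2, Ccnd3, Cdk4 and Cdkn1a overlap genes of the opposite strand, outside coding sequence. The deposited signal table, named normalized counts, holds the values fitted by the authors' model (library date and condition). After terms for condition and replicate number the log2 values kept a residual SD of 5.96e-14. The deposited comparison tables hold log2 fold changes, their SE, test statistics and p-values. The SE gave the errors, and the log2 fold changes and mean signal served only to place the fitted values on 1 scale per library (size factors 0.416 to 2.14). The authors' statistics and p-values were not used. Levels, fold changes and Wald p-values (normal distribution) were computed in Python 3.11.15 with SciPy 1.17.1, for genes with a mean level of at least 10, and tested on simulated data. Genes named are all members, Zfp36, list genes past the threshold in a comparison, and the 3 nearest genes of each called member. Members and lists were chosen with earlier results of these data known. Alternatives were the filter, centring, chromosome medians, joint adjustment, a t distribution, a pseudocount of 10 and exon length.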

Additional observations from a re-analysis of the deposited data

How the results depend on the processing

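The values are fitted, so no library could be left out. No paired analysis was possible because the fitted values carry no residual scatter and already hold a term that follows the replicate number. With no filter, a mean level of at least 50, or the median change set to 0, all 30 differences (10 genes in 3 comparisons) kept their direction and their side of the threshold, and with a pseudocount of 10 all kept their direction. With chromosome medians subtracted, Cdk4 between the TTP forms was lost (0.30, adjusted p = 0.14), and with joint adjustment Ccnd1 was lost (adjusted p = 0.067, Wald test). With a t distribution on 4 residual degrees of freedom in place of the normal, 0 of the 10 members and 0 of all genes were called in each comparison, and the adjusted p between the TTP forms was 0.47 for Ccnd1, 0.44 for Cdk4 and 0.44 for Cdkn2a. That setting could call no gene at all, since even a Wald z of 22.5 gave an adjusted p of 0.23. At an unadjusted p under 0.05 it held 364, 512 and 1056 genes in the 3 comparisons, with 0, 1 and 3 members among them. Over all alternatives the adjusted p ranged from 0.037 to 0.47 for Ccnd1, from 0.0049 to 0.44 for Cdk4 and from 0.0067 to 0.44 for Cdkn2a. The upper ends are those of the t distribution. Reads behind single values were not used here. The SEs for Cdkn1b, Cdkn2b, Cdkn2c and Cdkn2d were 0.21 to 0.24, not far below the largest SE of any gene, 0.25. Their fold changes are also shrunken toward 0, so the SEs and intervals belong to shrunken values. Both points limit what could be detected for these genes.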
